A study of Mus musculus with 2 samples.

Results

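The 46 genes described here mark steps of the cell division cycle. They were fixed by name and not by a rule on their values, though earlier results of these data were known. All 46 were among the 31053 genes counted in both libraries. They comprise 14 S phase genes, 25 mitotic genes, 5 G1 cyclins and 2 others, *Stmn1* and *Cdkn1a*. They were followed across lymphoid, myeloid, plasma and tubule cells of lupus-prone kidneys.

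The scRNA-seq data hold 1 library of pooled kidneys of young MRL-*lpr* mice and 1 of pooled kidneys of old MRL-*lpr* mice, made to examine renal ILCs. Both groups carried the *Fas*-lpr mutation, which leads to lupus-like disease with age, and no treatment was given. By the methods, the young mice served as control or mildly diseased and the old mice as severely diseased animals. Leukocytes were enriched on a density gradient, ILCs with a magnetic kit, and live cells were sorted, so a share of a library is not a frequency in the kidney. With 1 library per age no replicate checks any difference, no test was possible, and differences between the libraries cannot be told apart from differences between pools, preparations or runs.

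Proliferating cells copy their DNA in S phase and divide in mitosis, and most of the genes for both steps are transcribed mainly in cycling cells. D cyclins act earlier, in G1, where they activate CDK4 and CDK6 in response to growth signals, and are also found in cells that do not divide. Lymphocytes divide after activation, while tubule cells of a healthy kidney divide rarely and do so more after injury.

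After cells with under 200 genes or over 20% mitochondrial UMIs (unique molecular identifiers) were left out, 11429 young cells (median 7881 UMIs) and 10232 old cells (median 6933 UMIs) remained. Cells were placed in classes by UMIs of fixed marker genes and are named "like" for that reason. The classes with at least 50 cells in both libraries, young and old, were T-like (544 and 3927 cells), ILC2-like (1344 and 309), NK or ILC1-like (173 and 242), B-like (347 and 167), macrophage or monocyte-like (182 and 277), neutrophil-like (146 and 133), plasmacytoid dendritic-like (81 and 56) and proximal tubule-like (PT-like; 5855 and 3331). The libraries shared 26 barcodes among the kept cells. The methods name female mice, yet 50.8% of young and 40.6% of old cells had UMIs of Y-linked genes and none of *Xist*, and the reverse held in 14.6% and 29.1%. In T-like cells the Y-linked share was 52.6% in the young and 32.2% in the old library, so values within either kind of cell stand beside the results they change. PT marker genes were also present outside PT-like cells, with a median of 2 of 10 in young and 1 of 10 in old T-like cells.

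Promoters of 37 of the 46 genes were found in RefSeq (GRCm38.p6), from 250 bases before to 50 after the start of transcription. Those of *Mcm4*, *Gins2*, *Ccna2*, *Aurkb*, *Tpx2*, *Ccnd1*, *Ccnd2*, *Ccne2* and *Stmn1* were not. They were searched on both strands for the CHR (TTTGAA or TTCGAA), the CCAAT box (CCAAT) and E2F sites (TTTGGCGC, TTTCCCGC, TTTCGCGC or TTTGCCGC), motifs known from cell cycle promoters. The CHR and the CCAAT box lay together in 19 of 23 windows of mitotic genes (82.6%), in 3 of 13 of S phase genes (23.1%) and in 7.52% of all 32851 windows. The CHR, with or without a CCAAT box, was found in 19.2% of all windows, and the CCAAT box, with or without a CHR, in 37.4%. An E2F site lay in 5 of 13 S phase windows (38.5%), 1 of 23 mitotic windows (4.35%) and 2.26% of all. A match describes these letters and is not a measured site. The 250 bases before the start of *Mki67* (chr7:135716380-135716629, minus strand), *Ube2c* (chr2:164769679-164769928, plus strand), *Cdk1* (chr10:69352913-69353162, minus strand), *Mcm5* (chr8:75109259-75109508, plus strand) and *Tyms* (chr5:30073626-30073875, minus strand) are shown as examples of mitotic and S phase genes. Capitals mark a motif on either strand, with 2 overlapping E2F matches in *Mcm5*, 2 overlapping CCAAT boxes in *Ube2c* and no match in *Tyms*.
Mki67: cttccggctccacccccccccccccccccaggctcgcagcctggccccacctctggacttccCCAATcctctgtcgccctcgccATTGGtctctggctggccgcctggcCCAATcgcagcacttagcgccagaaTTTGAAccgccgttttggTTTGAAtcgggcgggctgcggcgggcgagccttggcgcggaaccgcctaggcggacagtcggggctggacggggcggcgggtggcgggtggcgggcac
Ube2c: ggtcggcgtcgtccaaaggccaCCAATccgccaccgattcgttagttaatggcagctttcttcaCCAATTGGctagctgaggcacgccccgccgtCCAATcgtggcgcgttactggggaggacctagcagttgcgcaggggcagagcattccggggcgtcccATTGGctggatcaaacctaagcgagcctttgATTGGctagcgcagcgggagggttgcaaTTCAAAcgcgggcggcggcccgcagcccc
Cdk1: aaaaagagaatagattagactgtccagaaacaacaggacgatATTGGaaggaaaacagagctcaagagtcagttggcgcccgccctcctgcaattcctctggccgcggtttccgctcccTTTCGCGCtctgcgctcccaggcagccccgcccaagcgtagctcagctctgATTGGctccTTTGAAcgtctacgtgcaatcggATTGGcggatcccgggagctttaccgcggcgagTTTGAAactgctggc
Mcm5: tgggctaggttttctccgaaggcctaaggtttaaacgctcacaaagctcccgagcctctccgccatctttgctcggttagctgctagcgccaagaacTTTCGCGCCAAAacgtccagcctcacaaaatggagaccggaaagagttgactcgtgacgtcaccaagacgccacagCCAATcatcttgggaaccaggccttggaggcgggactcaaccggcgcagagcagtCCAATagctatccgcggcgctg
Tyms: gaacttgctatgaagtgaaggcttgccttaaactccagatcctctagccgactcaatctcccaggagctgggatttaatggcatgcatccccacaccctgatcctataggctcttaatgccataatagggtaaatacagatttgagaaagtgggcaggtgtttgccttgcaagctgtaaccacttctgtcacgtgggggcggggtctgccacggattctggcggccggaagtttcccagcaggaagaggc

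Cells with UMIs of at least 3 of the 25 mitotic genes were rarer in the old than in the young library among PT-like cells, and the T-like shares had the same order with intervals that overlap. To set all cells to 1 depth, each was thinned to 1000 UMIs, and shallower cells were left out. Of T-like cells, 14 of 541 (2.59%; exact Clopper-Pearson 95% interval 1.42–4.30%) carried such transcripts in the young library and 42 of 3897 (1.08%; 0.778–1.45%) in the old library. Of PT-like cells, 126 of 5834 (2.16%; 1.80–2.57%) did so in the young and 29 of 3326 (0.872%; 0.585–1.25%) in the old library. The intervals were apart in PT-like cells and overlapped at their ends in T-like cells. Of ILC2-like cells, 12 of 1335 (0.899%; 0.465–1.56%) were positive in the young library and 0 of 305 in the old library, which allows a share of up to 0.984%. A lower share in old ILC2-like cells was thus not detectable at this number of cells. Counting error is all that these intervals, and the limit of 3 counts used for a count of 0, cover.

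The other classes held few positive cells. NK or ILC1-like cells had 2.34% (4 of 171) and 2.51% (6 of 239), B-like cells 0.875% (3 of 343) and 0.606% (1 of 165), and macrophage or monocyte-like cells 0.556% (1 of 180) and 2.18% (6 of 275) in the young and old library. Neutrophils are known as cells that no longer divide, and neutrophil-like cells (median 2324.5 and 3626 UMIs) had 1 of 145 and 0 of 131 positive cells. Young endothelial-like cells, which had only 17 counterparts in the old library, had 10 of 265 (3.77%; 1.82–6.83%).

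Without thinning the shares were higher. They came to 6.07% and 6.72% in T-like cells, where the order of the libraries turned, to 2.75% and 0.647% in ILC2-like and to 5.65% and 2.34% in PT-like cells. The class that supplied most mitotic cells differed between the libraries as well: PT-like cells were 126 of 225 positive cells of all kinds in the young library (56.0%), and T-like cells 42 of 103 (40.8%) in the old library, which also held far more T-like cells.

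**Figure D1:**
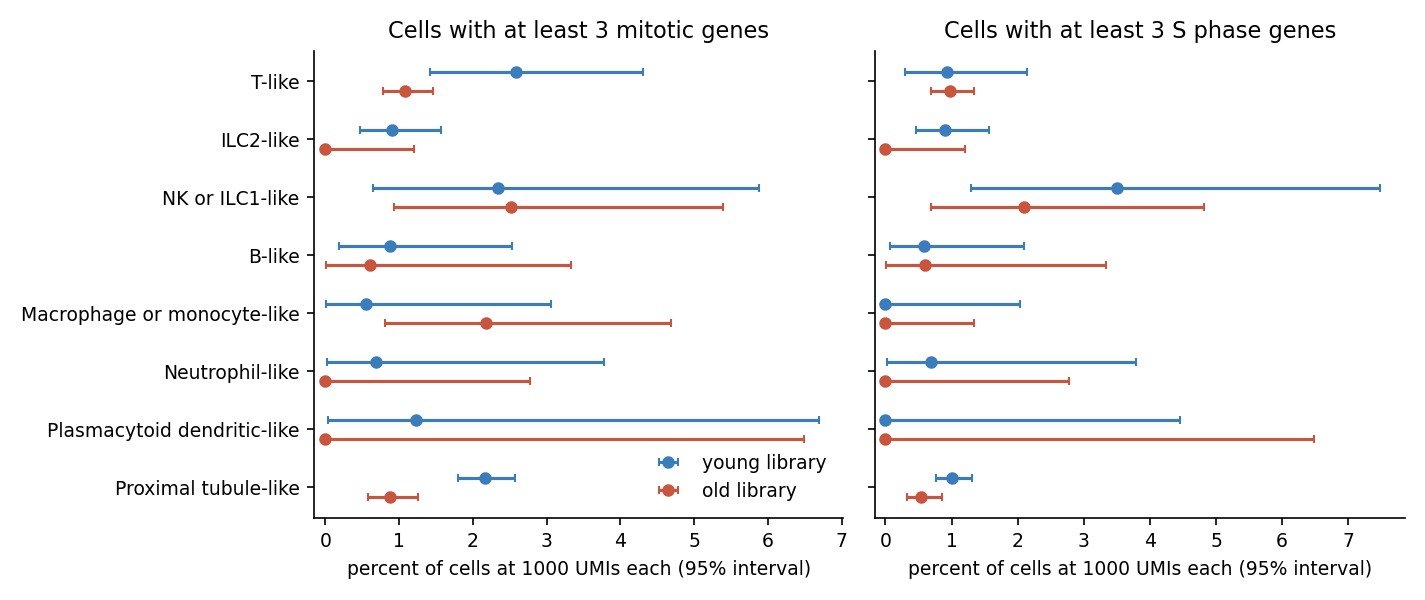
Percentage of cells with UMIs of at least 3 mitotic (left) or S phase genes (right) by cell class after thinning to 1000 UMIs per cell, with exact 95% intervals. Blue points are the young and red points the old library, and the young point lies to the right of the old one for mitotic genes in T-like (2.59% and 1.08%) and PT-like cells (2.16% and 0.872%).

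After thinning, the 14 S phase genes gave fewer positive T-like and PT-like cells than the mitotic genes, though not fewer in every class. The share of T-like cells with UMIs of at least 3 was 0.924% in the young and 0.975% in the old library, beside 1.01% and 0.541% of PT-like cells, and 3.51% and 2.09% of NK or ILC1-like cells. Of ILC2-like cells, 12 of 1335 (0.899%) were positive in the young and 0 of 305 in the old library. Over all kept cells, both calls fell on the same cell in 56 young cells. Beside these were 169 with the mitotic call alone and 73 with the S phase call alone. The old library had 26, 77 and 42 such cells. In T-like and PT-like cells the calls differed with thinning. Without thinning, S phase calls outnumbered mitotic calls in both classes. They came to 13.8% and 16.9% of T-like and 21.3% and 18.8% of PT-like cells in the young and old library. The thinned calls rest on few transcripts per cell, so a cell that is not called may still be cycling.

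Summed over the 25 mitotic genes, transcripts of T-like cells came to 827 CPM (UMIs per 1000000 UMIs of the class; exact Poisson 95% interval 796–860) in the young and 493 (484–502) in the old library, a log2 ratio of old over young of −0.75 (−0.81 to −0.69). In PT-like cells the sum was 235 CPM (232–238) and 123 (121–126), a log2 ratio of −0.93. ILC2-like cells had the widest gap between the libraries, 337 CPM (324–350) against 85.3 (71.9–100.4), a log2 ratio of −1.98. Most of these UMIs sat in few cells and UMIs of 1 cell are not independent, so the intervals of CPM values are too narrow. Within T-like cells with a Y-linked UMI and no *Xist* UMI the log2 ratio was −0.62, and within *Xist*-bearing cells without a Y-linked UMI it was 0.04 (−0.14 to 0.23), from 92 young cells. The lower level in old T-like cells was therefore not seen among *Xist*-bearing cells, whereas PT-like cells had −0.995 and −0.84 and ILC2-like cells −2.32 and −1.60 in the 2 kinds of cell.

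Of the remaining classes compared between the libraries, only neutrophil-like cells had a larger difference in mitotic sum than T-like cells. Macrophage or monocyte-like cells went the other way. The mitotic sum was 750 and 615 CPM in NK or ILC1-like cells (log2 ratio −0.29), 744 and 580 in B-like cells (−0.36), 362 and 151 in neutrophil-like cells (−1.26), and 166 and 156 in plasmacytoid dendritic-like cells (−0.09, −0.50 to 0.31). B-like cells differed in sign between the 2 kinds of cell, with 0.26 in Y-linked and −1.58 in *Xist*-bearing cells, while the ratios of NK or ILC1-like cells were −0.61 and −0.11. In macrophage or monocyte-like cells it was higher in the old library, 281 CPM against 180 (0.64; 0.45 to 0.84). The old library held 6 positive cells of that class. Without the positive cells of both libraries the sum was 141 CPM in the young and 88.8 in the old library (−0.67). The positive cells were chosen by the same UMIs that are summed, so this value describes the remaining cells and tests nothing. Among *Xist*-bearing cells, 32 young and 90 old, the sum was lower in the old library (−1.58), and among Y-linked cells it was higher (1.04). Summed mitotic transcripts were highest of all in young endothelial-like cells (1360 CPM), and 58 other tubule-like cells of the old library had 657 CPM, both without a comparable class in the other library.

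Without the cells called positive, the mitotic sum of T-like cells was 191 CPM in the young and 199 in the old library (0.06; −0.07 to 0.19). Those cells were chosen by the same UMIs that are summed, and they were 14 of the 33 young but 42 of the 264 old T-like cells positive without thinning, so these values describe the remaining cells and test nothing. In PT-like cells 51.0 CPM were left in the young and 33.6 in the old library (−0.60; −0.67 to −0.53). ILC2-like cells kept 110 and 85.4 CPM (−0.36; −0.63 to −0.10). The 5% of cells with the most mitotic UMIs held 86.8% of them in young and 75.4% in old T-like cells. In PT-like cells this was 90.8% and 90.5%.

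S phase sums differed less than mitotic sums in T-like, ILC2-like, B-like, macrophage or monocyte-like and PT-like cells, and more in NK or ILC1-like, neutrophil-like and plasmacytoid dendritic-like cells. The S phase sum of T-like cells was 396 CPM (374–419) in the young and 419 (411–428) in the old library, a log2 ratio of 0.08 whose interval (−0.0031 to 0.17) spans 0. The sum was 301 and 203 CPM in ILC2-like cells (−0.57), 598 and 457 in NK or ILC1-like cells (−0.39), 188 and 141 in PT-like cells (−0.42), 308 and 297 in B-like cells (−0.06, −0.26 to 0.15) and 200 and 175 in macrophage or monocyte-like cells (−0.20, −0.39 to 0.0032). Plasmacytoid dendritic-like cells had more in the old library, 298 CPM against 152 (0.97; 0.62 to 1.33), although none of them carried 3 S phase genes after thinning (11.1% and 21.4% did without thinning). In the old library 3 of the 56 cells held 60.4% of their 182 S phase UMIs. In neutrophil-like cells the S phase sum was 114 and 44.0 CPM.

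**Figure D2:**
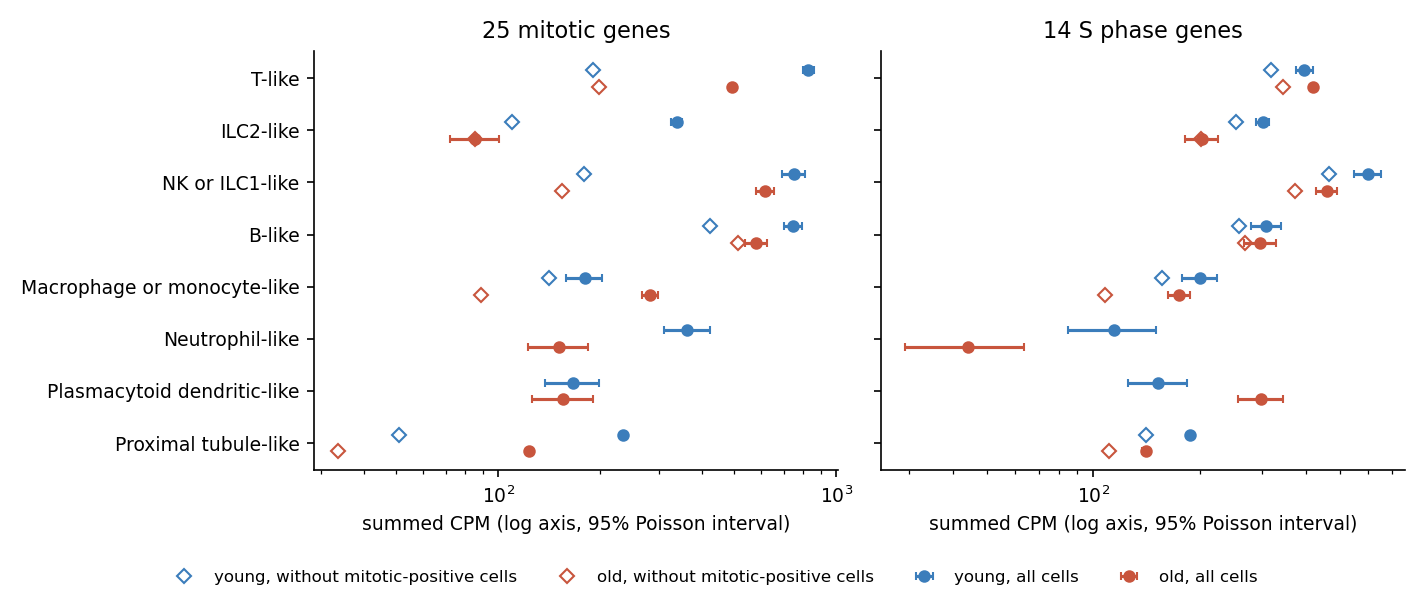
Summed CPM of the 25 mitotic (left) and 14 S phase genes (right) by cell class on a log axis, with exact Poisson 95% intervals for all cells (filled points) in the young (blue) and old (red) library. Open diamonds, drawn for the 6 largest of these classes, give the sum without cells that carried at least 3 mitotic genes, which were chosen by the same UMIs. In T-like cells the diamonds stand at 191 and 199 CPM and the filled points at 827 and 493.

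Gene by gene, the S phase group began with the replicative helicase. *Mcm5*, one of its subunits, had 36.8 CPM in young and 29.8 in old T-like cells, 31.6 and 18.9 in ILC2-like, 70.7 and 39.2 in NK or ILC1-like cells, 29.6 and 29.0 in B-like cells, 24.0 and 17.3 in macrophage or monocyte-like and 10.4 and 6.46 in PT-like cells. NK or ILC1-like cells stood first of the 8 young and 9 old classes ranked, which leave out endothelial-like and other tubule-like cells, but in the old library their interval overlapped that of T-like cells. *Mcm6* was the most abundant helicase transcript of T-like cells and the one S phase gene whose interval lay above 0 there, with 62.7 CPM in the young and 84.6 in the old library (log2 ratio 0.43; 0.22 to 0.65). All 6 *Mcm* genes were lower in the old library in PT-like and ILC2-like cells.

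*Pcna*, the clamp that holds DNA polymerase on its template, had 35.2 and 41.8 CPM in young and old T-like cells, 17.9 and 21.9 in ILC2-like cells, 48.3 and 35.0 in NK or ILC1-like cells, 25.4 and 20.1 in B-like cells and 34.9 and 31.5 in macrophage or monocyte-like cells. In PT-like cells it had 11.2 and 12 CPM and was the only S phase gene of that class that was not lower in the old library (0.10; −0.03 to 0.23). *Pcna* is also known as a DNA repair gene.

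*Rrm2*, the subunit of ribonucleotide reductase that limits its activity, was found in few cells. It had 33.0 and 19.6 CPM in young and old T-like cells, 36.5 and 19.0 in NK or ILC1-like cells, 35.9 and 9.65 in B-like cells, 7.53 and 5.76 in macrophage or monocyte-like and 21.2 and 13.4 in PT-like cells. In ILC2-like cells it went from 108 UMIs (14.4 CPM) in the young library to none in the old, where the limit of 3 counts is 1.78 CPM.

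*Tyms*, which makes thymidylate, and *Tk1*, which salvages thymidine, were found in more PT-like cells than *Rrm2* was. *Tyms* had 27.5 and 30.1 CPM in young and old T-like cells, 17.6 and 2.96 in ILC2-like and 36.5 and 26.1 in PT-like cells, the highest young level among classes compared between the libraries. The share of PT-like cells with a UMI of *Tyms* was 36.8% in the young and 28.3% in the old library, and that of *Tk1* 21.5% and 18.7%, against 5.58% and 2.85% for *Rrm2* and 3.67% and 2.19% for *Mki67*. The 5% of PT-like cells with the most UMIs held 40.7% of *Tyms* UMIs in the young library but 98.6% of *Rrm2* UMIs. For *Tk1* that share was 65.2%. *Tyms* transcripts were thus spread over more PT-like cells than those of *Rrm2* and *Mki67*, with *Tk1* between them. Across the other S phase genes the lowest level of each class was mostly that of *Cdc6*, which loads the helicase, at 4.52 and 3.58 CPM in T-like and 1.55 and 0.958 CPM in PT-like cells. *Gins2* and *Cdc45*, partners of the helicase, were highest in NK or ILC1-like cells among these classes in both libraries, at 11.8 and 8.90 CPM and at 15.3 and 10.1 CPM, with intervals that overlap those of the next class.

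The S phase genes were low in neutrophil-like cells and, in the old library, less so in plasmacytoid dendritic-like cells. Neutrophil-like cells, young and old, had 8.95 and 7.85 CPM of *Mcm5*, 20.1 and 7.85 of *Pcna*, 8.95 CPM and no UMI of *Rrm2*, and 15.7 and 1.57 CPM of *Tyms*. The levels in plasmacytoid dendritic-like cells were 8.37 and 16.4 CPM of *Mcm5*, 16.7 and 22.9 of *Pcna*, 1.40 and 11.5 of *Rrm2*, and 2.79 and 16.4 of *Tyms*. The level of *Tyms* was 22.4 and 16.0 CPM in NK or ILC1-like, 15.5 and 21.7 in B-like and 13.7 and 13.1 in macrophage or monocyte-like cells. The old plasmacytoid dendritic-like values were thus above the young ones for all 4 genes, and the neutrophil-like values below, on few UMIs.

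**Figure D3:**
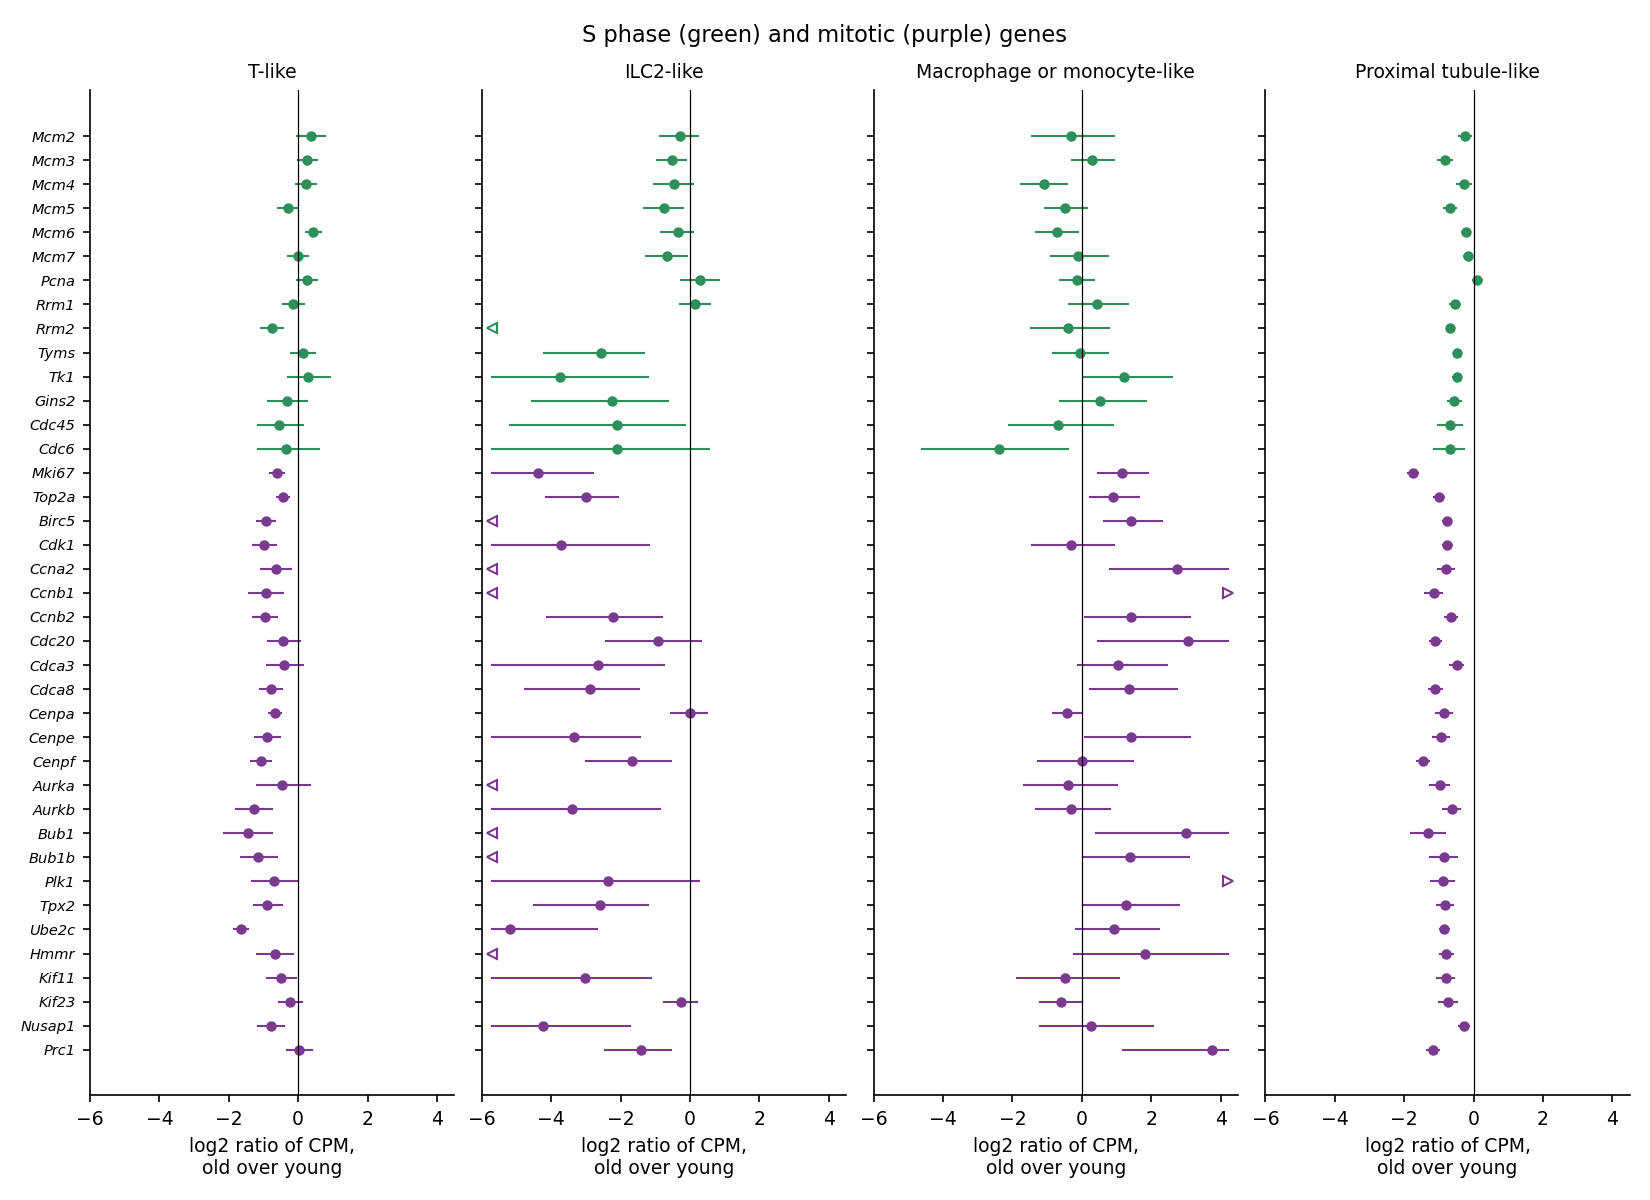
Log2 ratio of CPM, old over young library, of each S phase (green) and mitotic gene (purple) in 4 cell classes, with exact binomial 95% intervals cut at the ends of the axis. An open triangle at the left stands for a gene with no UMI in the old library and one at the right for a gene with none in the young, and all 25 mitotic points of PT-like cells lie to the left of 0.

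Of the mitotic genes, *Mki67*, which coats mitotic chromosomes, had 78.5 CPM in young and 51.8 in old T-like cells (log2 ratio −0.60; −0.80 to −0.39). It had 36.7 and 1.78 CPM in ILC2-like cells, from 275 and 3 UMIs (−4.37; −6.65 to −2.81), and 23.7 and 7.06 in PT-like cells (−1.74; −1.89 to −1.60). The level was 88.4 and 62.9 CPM in NK or ILC1-like cells, 88.7 and 34.6 in B-like cells, 13.7 and 30.4 in macrophage or monocyte-like cells, 40.3 and 3.14 in neutrophil-like cells and 2.79 and 6.55 in plasmacytoid dendritic-like cells. Among the young classes B-like, NK or ILC1-like and T-like cells did not differ beyond their intervals.

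*Top2a*, the topoisomerase that untangles sister chromatids, was the most abundant mitotic transcript of T-like cells, with 106 CPM in the young and 77.5 in the old library. It had 42.9 and 5.33 CPM in ILC2-like, 110 and 92.5 in NK or ILC1-like, 101 and 100.5 in B-like, 15.1 and 28.3 in macrophage or monocyte-like and 17.5 and 8.73 CPM in PT-like cells. *Cdk1*, the kinase that starts mitosis, had 29.7 and 15.1 CPM in T-like, 7.73 and 0.592 in ILC2-like, 34.2 and 26.1 in NK or ILC1-like, 11.3 and 16.1 in B-like and 16.3 and 9.64 in PT-like cells. *Ccnb1*, its cyclin, was lower in the old library as well, at 14.5 and 7.63 CPM in T-like and 6.15 and 2.77 in PT-like cells, with no UMI in old ILC2-like cells. *Birc5*, a part of the chromosomal passenger complex, had 51.7 and 26.9 CPM in T-like, 10.3 and 27.6 in macrophage or monocyte-like and 19.1 and 11.2 in PT-like cells. In ILC2-like cells it went from 141 UMIs (18.8 CPM) to none. *Birc5* had 49.5 and 46.3 CPM in NK or ILC1-like and 39.4 and 30.6 in B-like cells, and *Ccnb1* had 4.72 and 4.75 and 9.16 and 16.9 CPM there. In macrophage or monocyte-like cells *Cdk1* stood at 6.85 and 5.53 CPM, where *Ccnb1* had 6.22 CPM in the old library only. Neutrophil-like cells had 38.0 and 6.28 CPM of *Top2a*, no *Ccnb1*, and *Cdk1* (4.47 CPM) and *Birc5* (11.2 CPM) in the young library only. The levels in plasmacytoid dendritic-like cells were 9.77 and 24.6 CPM of *Top2a*, 2.79 and 3.28 of *Cdk1*, 4.19 and 1.64 of *Ccnb1* and 11.2 and 1.64 of *Birc5*. With *Mki67*, the 5 genes thus followed 1 order in T-like, ILC2-like and PT-like cells, young above old.

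*Cenpa* and *Kif23* departed from the other mitotic genes. *Cenpa*, the histone of centromeres, had 187 CPM in young and 93.3 in old B-like cells, more than any other mitotic gene had in young B-like cells, and its UMIs lay in 47.3% and 41.9% of B-like cells, whereas those of *Mki67* lay in 3.46% and 4.79%. In ILC2-like cells *Cenpa* was level between the libraries, at 22.7 and 22.5 CPM. *Kif23*, a motor of the dividing cell's midbody, had 161 CPM (126–203) in young and 95.8 (73.3–123) in old neutrophil-like cells, more than in T-like cells (30.7 and 26.3 CPM), and was found in 32.2% and 33.8% of neutrophil-like cells. Only 2 young and 2 old neutrophil-like cells had an *Mki67* UMI, and 8 of the 25 mitotic genes had any UMI in the old ones.

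In PT-like cells all 25 mitotic genes were lower in the old library, each with an interval below 0, as were 13 of 14 S phase genes. In T-like cells 24 of 25 were lower, 20 of them with an interval below 0, the exception being *Prc1* of the spindle midzone, while 7 of 14 S phase genes were lower. In ILC2-like cells all 25 were lower or at 0, and 14 of the 18 with UMIs in both libraries had an interval below 0, while 7 had no old UMI. NK or ILC1-like cells had 19 of 25 lower with 3 intervals below 0, B-like cells 14 of 25 with 4, and macrophage or monocyte-like cells 6 of 25 with none and 12 with an interval above 0. Of all genes with at least 50 UMIs, 5241 of 11088 were lower at any size in T-like, 5101 of 9139 in ILC2-like, 3454 of 5784 in NK or ILC1-like, 3439 of 5785 in B-like, 3796 of 7730 in macrophage or monocyte-like and 6515 of 13277 in PT-like cells. The counts of members above had no such minimum. Of mitotic genes that reached it, 8 of 10 were lower in B-like and 11 of 13 in NK or ILC1-like cells. In ILC2-like cells this was 18 of 18, and in macrophage or monocyte-like cells 2 of 8. The T-like count of S phase genes lies near the share of all genes. So does the B-like count over all 25 mitotic genes, but not that of the 10. The counts share cells, since the same few mitotic cells give most of the UMIs of each gene.

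Members that differed at least 2-fold were counted among genes with at least 50 UMIs over both libraries. In T-like cells all 46 passed this minimum and 5 were lower in the old library, *Ube2c*, *Bub1*, *Aurkb*, *Bub1b* and *Cenpf*, against 5.44% of all genes, while none was higher, against 6.48%. *Ube2c*, which tags mitotic proteins for decay, had 91.7 CPM in the young and 29.3 in the old library (−1.65; −1.85 to −1.44). In PT-like cells all 46 passed and 8 were lower, against 3.06% of all genes, and none was higher, against 3.59%. These 8 were *Mki67*, *Top2a*, *Ccnb1*, *Cdc20*, *Cdca8*, *Cenpf*, *Bub1* and *Prc1*.

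In ILC2-like cells 35 members passed and 20 were lower, against 4.72% of all genes, while none was higher, against 1.86%. The 20 were 15 mitotic genes, *Rrm2*, *Tyms*, *Tk1*, *Gins2* and *Stmn1*, and the minimum favours genes that are high in the young library, which held more of these cells. In B-like cells 22 passed and 6 were lower (*Rrm2*, *Mki67*, *Ccnd3*, *Nusap1*, *Cenpf* and *Cenpa*; 4.36% of all genes), with none higher (3.61%). In macrophage or monocyte-like cells 22 passed, 5 were higher (*Birc5*, *Cdca8*, *Tk1*, *Mki67* and *Cdca3*; 4.59%) and 2 lower (*Ccnd1* and *Mcm4*; 4.27%). In NK or ILC1-like cells 26 passed and none was called in either direction, against 1.26% higher and 2.63% lower of all genes. The largest difference there was that of *Rrm2* (−0.94; −1.70 to −0.18). The median log2 ratio of the mitotic genes that passed was −0.79 in T-like cells, −0.85 in PT-like cells and −2.76 in ILC2-like cells with genes at 0 set to their limit, beside 0.02, 0.00 and −0.05 over all genes.

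Between classes of 1 library, T-like cells exceeded PT-like cells by at least 2-fold for 34 members in the young and 33 in the old library, against 25.1% and 30.3% of all genes. They were at least 2-fold below PT-like cells for *Tk1* and *Ccnd1* in the young library and for *Ccnd1* in the old library, against 33.7% and 31.5%. The mitotic sum was 1.82 log2 units higher in T-like than in PT-like cells in the young and 2.0 in the old library.

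Cells with at least 3 mitotic genes also carried S phase transcripts, which had no part in that call. Their S phase sum was 1271 CPM in the 14 young T-like cells against 319 in the other T-like cells, and 2232 against 345 in the old library, with 42 cells. In PT-like cells it was 2152 CPM in 126 young cells against 141, and 2310 in 29 old cells against 111. *Rrm2* reached 621 CPM in young and 637 in old positive PT-like cells. Positive cells were deeper among T-like cells (median 14879.5 against 4787 UMIs in the young library) and among old PT-like cells (27529 against 16279), and less so among young PT-like cells (17219 against 16006). Scrublet called 2 of the 126 young positive PT-like cells doublets and none of the positive T-like cells.

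*Stmn1*, a regulator of microtubules, went with the same cells. It had 1516 CPM in positive young T-like cells, 1897 in old ones, 2769 in young and 3252 in old PT-like ones, and 2761 CPM in positive young ILC2-like cells. Over whole classes, young and old, it had 199 and 137 CPM in T-like, 387 and 247 in NK or ILC1-like, 175 and 116 in B-like, 43.8 and 53.9 in macrophage or monocyte-like and 61.4 and 95 in plasmacytoid dendritic-like cells. The gap was widest among lymphoid classes in ILC2-like cells, from 122 CPM in the young library to 11.2 in the old (−3.43; −4.17 to −2.78). In neutrophil-like cells it stood at 55.9 CPM in the young and at 1 UMI in the old library. In PT-like cells *Stmn1* stood at 266 and 234 CPM, and 79.3% of them had a UMI in either library, far more than had mitotic transcripts.

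**Figure D4:**
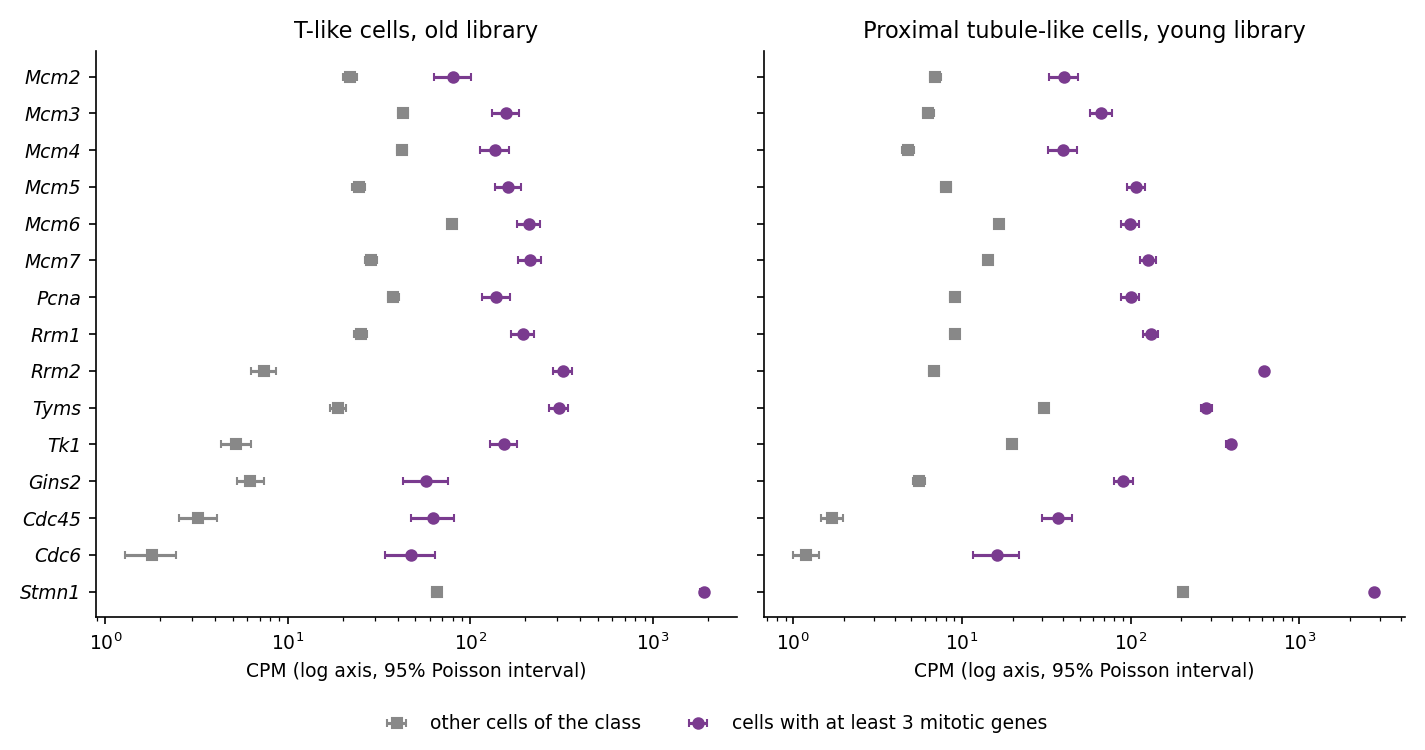
CPM of each S phase gene and of *Stmn1* in cells with at least 3 mitotic genes (purple) and in the other cells of the class (grey), for old T-like (left) and young PT-like cells (right), on a log axis with exact Poisson 95% intervals. Every purple point lies to the right of its grey point, with *Stmn1* at 1897 CPM in old T-like and 2769 CPM in young PT-like positive cells.

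The D cyclin with the most UMIs differed between classes. The 3 genes are compared by UMIs, since 3′ counting gives 1 UMI per captured transcript whatever its length. *Ccnd2* made up 62.4% (60.2–64.6%) of D cyclin UMIs in young and 66.4% (65.6–67.1%) in old T-like cells, 79.4% and 85.0% in ILC2-like and 59.3% and 57.9% in NK or ILC1-like cells. *Ccnd1* made up 83.7% (83.3–84.0%) in young and 90.0% (89.7–90.4%) in old PT-like cells, where *Ccnd2* had 0.325% and 0.204%. *Ccnd3* led in neutrophil-like cells with 80.2% and 78.1% and in macrophage or monocyte-like cells with 54.5% and 62.3%.

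In CPM, *Ccnd2* had 393 in young and 443 in old T-like, 350 and 413 in ILC2-like, 591 and 595 in NK or ILC1-like, 125 and 176 in B-like, 56.8 and 84.5 in macrophage or monocyte-like, 47.0 and 75.4 in neutrophil-like and 1.12 and 0.850 in PT-like cells. *Ccnd1* had 289 and 375 CPM in PT-like, 282 and 239 in plasmacytoid dendritic-like, 91.1 and 29.7 in macrophage or monocyte-like, 20.7 and 14 in T-like and 13.3 and 7.70 in ILC2-like cells. *Ccnd3* had 291 and 308 CPM in neutrophil-like, 216 and 210 in T-like, 384 and 418 in NK or ILC1-like, 177 and 188 in macrophage or monocyte-like, 77.3 and 65.1 in ILC2-like and 55.4 and 40.7 in PT-like cells. The remaining values were 87.9 and 203 CPM of *Ccnd2* and 114 and 98.3 of *Ccnd3* in plasmacytoid dendritic-like cells, and 21.2 and 14.8, 26.1 and 13.7, and 24.6 and 11 CPM of *Ccnd1* in NK or ILC1-like, B-like and neutrophil-like cells. Unlike the mitotic genes, *Ccnd2* was not lower in old ILC2-like cells.

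In B-like cells the order of the D cyclins differed between the libraries. *Ccnd3* went from 53.6% (48.9–58.2%) of their D cyclin UMIs to 28.7% (23.9–33.9%) and *Ccnd2* from 38.4% (33.9–43.0%) to 66.2% (60.8–71.2%). In CPM this was 174 against 76.4 for *Ccnd3* (−1.19; −1.54 to −0.84) and 125 against 176 for *Ccnd2*. The 62 plasma-like cells of the old library had *Ccnd2* at 90.1%.

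The level of *Ccnd1* in T-like cells was 7.15% of that in PT-like cells in the young and 3.72% in the old library, where PT marker genes in T-like cells stood at 4.17% and 2.13% of their PT-like level. In plasmacytoid dendritic-like cells *Ccnd1* was at 97.4% and 63.8% of the PT-like level and PT markers at 2.72% and 1.02%. *Ccnd2* in PT-like cells was 0.286% and 0.192% of its T-like level, beside T marker genes at 0.0777% and 0.166%. The gates limit these marker levels, since cells that met the markers of more than 1 class were left out. Whether RNA from other cells had a part in the levels of the cyclins was not tested. UMIs of at least 1 D cyclin were found in 87.3% and 88.1% of T-like and in 86.0% and 85.8% of PT-like cells, far more than had mitotic calls.

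The D cyclins differed among themselves in cells with at least 3 mitotic genes. *Ccnd2* made up less of the UMIs of positive T-like cells, with 113 CPM against 417 in the other young cells and 156 against 454 in the old library, and of positive young ILC2-like cells, with 98.4 against 357. Per cell this was a mean of 2.0 and 3.38 *Ccnd2* UMIs in positive T-like cells against 2.25 and 2.62, since positive cells were deeper. Positive PT-like cells had 277 CPM of *Ccnd1* against 290 in the young library and 317 against 376 in the old. *Ccnd3* was higher in them in both libraries, 79.1 CPM against 54.8 (log2 ratio 0.53; 0.32 to 0.73) and 80.6 against 40.1 (1.01; 0.65 to 1.35). *Ccnd1* differed in sign in positive T-like cells, with 48.3 CPM against 18.3 in the young and 1.10 against 14.5 in the old library. The 6 positive old macrophage or monocyte-like cells stood apart, with a mean of 9.5 *Ccnd1* UMIs against 0.268 in the others, and were deeper (median 42234.5 against 13501 UMIs). E cyclins, which act at the start of S phase, were low everywhere. *Ccne1* had 8.08 and 7.33 CPM in young and old T-like, 2.53 CPM and no UMI in ILC2-like and 2.0 and 1.30 in PT-like cells, and *Ccne2* had 3.88 and 4.66, 2.53 and 1.18, and 3.35 and 2.07 CPM. In the other classes compared between the libraries they ranged from no UMI to 8.90 CPM. In positive PT-like cells *Ccne1* reached 25.7 and 27.2 CPM and *Ccne2* 27.6 and 30.6 CPM.

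**Figure D5:**
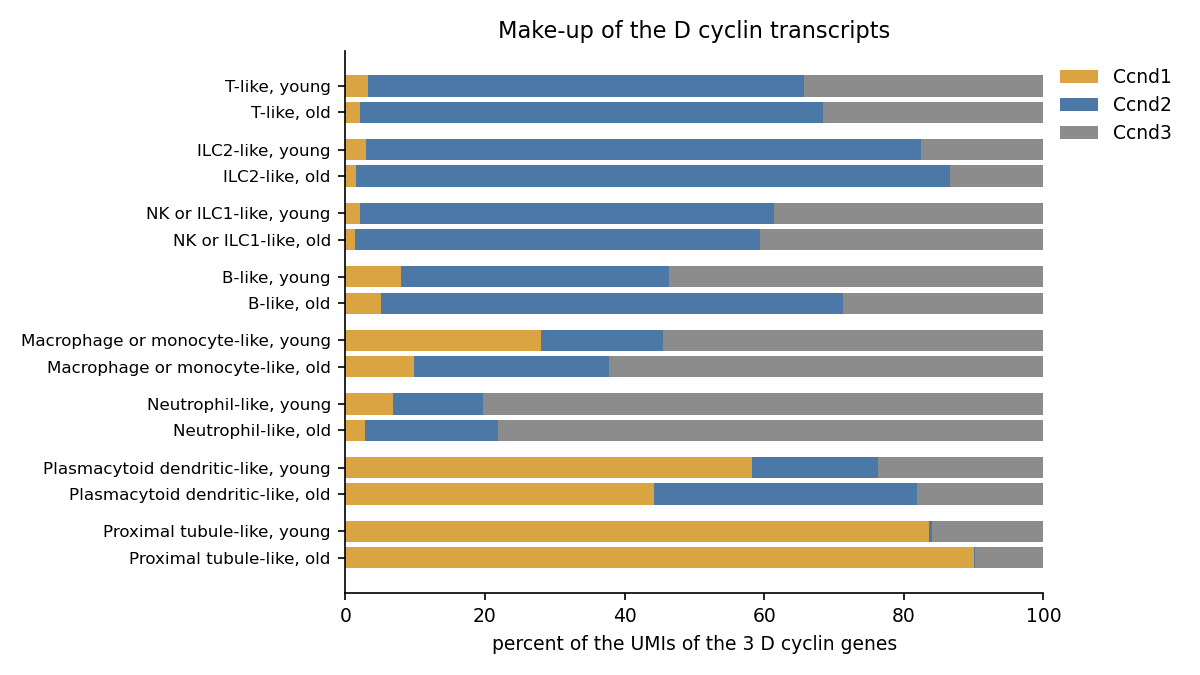
Percentage of the UMIs of the 3 D cyclin genes that belonged to *Ccnd1* (yellow), *Ccnd2* (blue) and *Ccnd3* (grey) in each cell class and library. T-like, ILC2-like and NK or ILC1-like bars are mostly blue, PT-like bars mostly yellow (83.7% and 90.0%), and the blue part of B-like cells widens from 38.4% to 66.2%.

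*Cdkn1a*, the p21 inhibitor of cell cycle kinases that p53 induces, was highest, among classes compared between the libraries, in macrophage or monocyte-like cells, with 307 CPM in the young and 260 in the old library. It had 191 and 253 CPM in ILC2-like cells (0.41; 0.25 to 0.56), 123 and 102 in neutrophil-like, 54.2 and 54.6 in NK or ILC1-like, 45.9 and 25.7 in T-like, 24.7 and 4.83 in B-like, 29.3 and 54.1 in plasmacytoid dendritic-like and 17.7 and 15.6 in PT-like cells. Among T-like, ILC2-like, NK or ILC1-like and B-like cells, ILC2-like cells thus had the highest *Cdkn1a* and the lowest mitotic sum in both libraries. Other classes did not all follow this. Young PT-like and plasmacytoid dendritic-like cells had less *Cdkn1a* than young ILC2-like cells and also a lower mitotic sum (235 and 166 against 337 CPM). In young macrophage or monocyte-like and neutrophil-like cells the measures differed from those of ILC2-like cells in opposite directions. Old positive macrophage or monocyte-like cells had 43.2 CPM of *Cdkn1a*, below the class as a whole, while positive PT-like cells had 54.5 and 78.3 CPM, above it.

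T-like cells with *Cd8a* or *Cd8b1* UMIs and none of *Cd4* had more mitotic transcripts than those with *Cd4* alone in both libraries. Their mitotic sum was 1529 CPM in 169 young and 729 in 1143 old cells, against 717 in 119 young and 363 in 1135 old *Cd4* cells. Cells with neither receptor had 385 and 263 CPM. The order was the same in the share with at least 3 mitotic genes, 4.73% and 2.20%, 2.52% and 0.885%, and 1.22% and 0.325%, though the young shares rest on 8, 3 and 3 cells and their intervals overlap. Depth followed this order too, with medians of 5023, 4947 and 4517.5 UMIs in the young and 6016, 5206 and 3976 in the old library. A receptor UMI is more easily missed in a shallow cell, and the part of depth was not tested. *Foxp3*-bearing cells went the other way between the libraries, with 451 CPM in 39 young and 677 in 125 old cells. Cells with at least 2 γδ receptor genes had 1485 and 665 CPM.

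PT-like cells with a UMI of *Havcr1*, the injury marker known as KIM-1, had fewer mitotic transcripts than other PT-like cells. A grouping by several injury genes had the same order in the young library and the reverse in the old, from only 4 and 11 cells. The mitotic sum was 69.2 CPM in 198 young and 20.9 in 152 old *Havcr1*-bearing cells, against 246 and 130 in the rest. PT-like cells with at least 3 of 7 injury genes had 40.5 CPM in 4 young cells and 1157 in 11 old cells, of which 1 was positive, against 235 and 118 in the rest. *Cdkn1a* had 36.4 and 33.5 CPM in *Havcr1*-bearing cells against 16.4 and 14.4 in the rest. In cells with at least 3 injury genes it had 16.2 and 59.6 CPM against 17.7 and 15.3. *Havcr1*-bearing cells were deeper (median 36629 against 15704 UMIs in the young library), and the part of depth in this was not tested.

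Among fixed lists of further genes, other mitotic genes followed the members in PT-like cells, where all 30 were lower in the old library and 3 at least 2-fold (*Nuf2*, *Ndc80* and *Ect2*; median log2 ratio −0.57; 3.06% of all genes). In T-like cells 23 of 27 were lower, 4 of them at least 2-fold (*Nek2*, *Nuf2*, *Cks1b* and *Ckap2*; median −0.27; 5.44% of all genes), and in ILC2-like cells 14 of 15 (4 at least 2-fold; median −0.48; 4.72% of all genes). Other S phase genes were lower in 29 of 30 in PT-like and 21 of 24 in ILC2-like cells but in 13 of 28 in T-like cells, where *Rpa2*, a single-strand DNA binding protein, was over 2-fold higher in the old library (46.2 and 104.8 CPM). Of 16 G1 control genes in T-like cells, *Cdk6* went from 34.9 to 131 CPM (1.91), *Cdkn2a* from 1.62 to 18.6 (3.53) and *Cdkn2c*, an inhibitor of CDK4 and CDK6, from 19.4 to 45.7 (1.24), while *Cdkn1c* was lower. At 2-fold, 3 were thus higher and 1 lower, against 6.48% and 5.44% of all genes. *E2f1* was lower in old ILC2-like cells (10.1 and 1.18 CPM), while *Cdk6* was higher there (24.9 and 56.2 CPM). Of p53 targets beside *Cdkn1a*, 1 of 9 each was at least 2-fold higher in old T-like and PT-like cells, *Phlda3* in both, beside 6.48% and 3.59% of all genes.

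Genes of the stress response to tissue dissociation moved between the libraries as well. In macrophage or monocyte-like cells 8 of 10 were at least 2-fold lower in the old library, against 4.27% of all genes. The sum of the 10 was 14574 CPM in the young and 6297 in the old library (−1.21), beside the higher mitotic sum of that class. In PT-like cells *Hspa1a* and *Hspa1b* were the 2 of 10 that were lower by that size (sum 3665 and 3109 CPM), against 3.06% of all genes. In ILC2-like cells the same 2 were lower (22160 and 23828 CPM), against 4.72%. In T-like cells 1 was lower and 2 were higher (6826 and 6112 CPM), against 5.44% and 6.48%. In ILC2-like cells T marker genes stood at 9.60% of their T-like level in the young and 7.40% in the old library. The gate limits this level, since it allowed ILC2-like cells UMIs of at most 1 of the 4 T markers. Whether stress or other cells had a part in these differences was not tested.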

How the data were processed

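Both libraries were made with 10x 3′ v3.1 chemistry. Per the labels and file headers, the authors aligned reads to mm10 and deposited raw UMI counts per gene and cell from Cell Ranger (version 3.1.0 in the matrix header). Cells under 200 genes or over 20% mitochondrial UMIs were removed, and those called doublets by Scrublet (Scanpy 1.11.5) stayed in. Classes required 3 to 6 fixed markers, with thresholds set after the distribution of markers was seen. Counts were summed per class and library and divided by the class total (CPM). Intervals were exact Poisson for CPM, Clopper-Pearson for shares and binomial for log2 ratios, at 95%, computed in SciPy 1.17.1 with Python 3.11.15. A gene was called at a 2-fold difference with at least 50 UMIs over both libraries, and scripts were tested on simulated data.

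Genes and lists were chosen with earlier results of these data known. For 16 genes values are given by class. Otherwise, up to 5 with the largest log2 ratio in each direction are named per comparison. The T cell, injury and positive-cell groups were read by marker UMIs within 1 library. Of the 46 genes, 7 overlap another annotated gene on the same strand. Alternatives covered the gates, filters, thinning, call thresholds, doublets, scaling and Y-linked or *Xist* UMIs. Promoters came from the RefSeq table of GRCm38.p6.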

Additional observations from a re-analysis of the deposited data

Results flagged for a closer look

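Several measures had intervals on opposite sides of 0 in different classes, each as a log2 ratio of old over young, and the difference between classes was not tested. The mitotic sum was 0.64 in macrophage or monocyte-like cells, against −0.75 in T-like, −1.98 in ILC2-like, −0.29 in NK or ILC1-like, −0.36 in B-like, −1.26 in neutrophil-like and −0.93 in PT-like cells. The S phase sum was 0.97 in plasmacytoid dendritic-like cells, against −0.57 in ILC2-like, −0.39 in NK or ILC1-like, −1.37 in neutrophil-like and −0.42 in PT-like cells. Of the S phase UMIs of old plasmacytoid dendritic-like cells, 60.4% lay in 3 of 56 cells. *Ccnd1* was 0.38 in PT-like cells, against −0.57 in T-like, −0.93 in B-like and −1.62 in macrophage or monocyte-like cells. *Stmn1* was 0.63 in plasmacytoid dendritic-like cells, against −0.54 in T-like, −3.43 in ILC2-like, −0.64 in NK or ILC1-like, −0.59 in B-like, −5.15 in neutrophil-like and −0.18 in PT-like cells. *Cdkn1a* was 0.41 in ILC2-like and 0.88 in plasmacytoid dendritic-like cells, against −0.84 in T-like, −2.35 in B-like, −0.24 in macrophage or monocyte-like and −0.18 in PT-like cells.

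Cells outside the comparisons also carried mitotic transcripts. At least 3 mitotic genes had UMIs in 3.18% of young and 1.33% of old cells that met the markers of more than 1 class, and in 2.79% and 1.22% of cells that met none.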

How the results depend on the processing

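With 1 library per age there was no replicate to leave out, and counting error is the only error the intervals hold. Of 250 values under alternatives, 157 moved by less than their interval (or, for counts of genes, less than 1.5 times), among them all 28 without doublets and all 28 with at least 500 genes. No paired analysis was possible because each age has 1 library. The cause of the differences below was not tested. Pairs are young and old.

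Gates and filters: with 1 more marker the mitotic sum was 982 and 520 CPM in T-like and 261 in young ILC2-like cells, its log2 ratio −0.92 in T-like and 1.19 in macrophage or monocyte-like cells, 11 genes were 2-fold lower in T-like cells and *Ccnd1* made up 84.2% in young PT-like cells. At 10% mitochondrial UMIs the PT-like mitotic sum was 259 and 135 CPM.

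In Y-linked cells, 1.83% of old T-like cells had mitotic and 0.230% of old PT-like cells S phase calls. Mitotic sums were 927 and 603 CPM in T-like, 511 and 102.7 in ILC2-like and 229 and 114.8 in PT-like cells, with log2 ratios of −0.62, −2.32 and −0.995, and 1.04 in macrophage or monocyte-like cells. S phase ratios were −0.81 in ILC2-like and −0.49 in PT-like cells, 3 T-like and 14 PT-like genes were lower, and *Ccnd1* made up 84.8% in young PT-like cells.

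In *Xist* cells the mitotic ratio turned to 0.041 in T-like and −1.58 in macrophage or monocyte-like cells, and was −1.60 in ILC2-like and −0.84 in PT-like cells. Mitotic calls were 1.09% and 0.708% in T-like and young S phase calls 0.267% in PT-like cells. Mitotic sums were 456 and 469.6 CPM in T-like, 170.2 and 56.0 in ILC2-like and 319 and 178 in PT-like cells. S phase ratios were −0.052 in T-like and −0.22 in PT-like cells, 2 T-like and 4 ILC2-like genes were lower, *Ccnd2* made up 64.9% and 67.7% in T-like and *Ccnd1* 82.4% and 91.5% in PT-like cells.

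Thinned to 500 UMIs, mitotic calls were 0.637% in old T-like and 1.30% and 0.420% in PT-like cells, with S phase calls of 0.325% and 0.150%. At 2000 UMIs they were 1.68%, 2.63% in young PT-like cells, and 2.70% and 1.36%. Without thinning, mitotic calls were 6.07% and 6.72% in T-like, 2.75% in young ILC2-like and 5.65% and 2.34% in PT-like cells, and S phase calls 21.3% and 18.8% in PT-like cells. With 2 genes required, mitotic calls were 1.95% in old T-like and 2.67% in young PT-like cells and S phase calls 2.61% and 1.41% in PT-like cells. With 5 genes, mitotic calls were 0.719% in old T-like and 1.23% and 0.451% in PT-like cells and S phase calls 0.0857% and 0.0902%.

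Without abundant genes in the total, mitotic sums were 1216 and 711 CPM in T-like, 481 and 122 in ILC2-like and 283 and 147 in PT-like cells. As the mean over cells they were 346 and 257 in T-like, 168 in young ILC2-like and 202 and 89.0 in PT-like cells, with log2 ratios of −0.43, −1.02 in ILC2-like, −1.18 in PT-like and 0.31 in macrophage or monocyte-like cells, and S phase ratios of −0.12 in ILC2-like and −0.53 in PT-like cells. At a minimum of 100 UMIs 11 and at 1 UMI 31 ILC2-like genes were lower. At 1.5-fold 20 T-like and 30 PT-like genes were lower.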
